A study of Mus musculus with 18 samples.

Results

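The 10 genes described here encode proteins that hold back signals from the T cell receptor (TCR): the ubiquitin ligases Cbl, Cblb, Itch and Rnf128, the paired proteins Ubash3a and Ubash3b, and the protein tyrosine phosphatases Ptpn2, Ptpn6, Ptpn22 and Ptprc. They were chosen by symbol for this known role from the 23337 genes of a table of read counts. Earlier results of these data were known when they were chosen. All 10 were present, and all 10 were among the 11118 genes with enough counts to be tested. The counts came from invariant natural killer T (iNKT) cells of the thymus, sorted as NKT1, NKT2 and NKT17 from WT and SKG mice on a BALB/c background, which gave 6 groups of 3 libraries each (18 libraries). SKG is a point mutation of Zap70, which encodes the kinase that binds the phosphorylated TCR complex, and the labels name no treatment. By the study's methods, the WT and SKG mice came from 1 cross of SKG with BALB/cJ mice and were then bred apart. The labels give neither the age nor the number of mice pooled for a library.

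When the TCR is engaged, the kinase LCK phosphorylates the CD3 and zeta chains, ZAP70 docks there, and adaptor proteins carry the signal onwards. Tyrosine phosphatases remove these phosphates, and ubiquitin ligases tag active receptors, kinases and adaptors for internalisation or breakdown. The UBASH3 proteins, also called STS proteins, bind ubiquitin and CBL and carry a phosphatase-like domain. PTPRC, known as CD45, is an exception among the 10, since it can also activate LCK by removing an inhibitory phosphate.

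The data showed a clear division by subset and a smaller one by genotype. In WT cells, 6 of the 10 genes were higher in NKT1 than in both other subsets, and Ubash3b alone was lower there. Of all tested genes, 27.5% passed between NKT1 and NKT2 (13.7% higher in NKT1) and 24.7% between NKT1 and NKT17 (11.2% higher). Among the 6, Cblb, Ubash3a, Ptpn6, Ptpn22 and Ptprc are named in the study's own account of NKT1. Their direction is thus not independent evidence. In SKG cells, Ubash3a was higher than in WT in NKT2 (2.58-fold) and in NKT17 (8.80-fold). Rnf128 was lower in both of these subsets, and neither gene passed the test in NKT1. The Rnf128 call in NKT2 rested on 2 to 16 counts per SKG library and failed in 3 of 26 alternative fits. Cbl and Itch passed no test.

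The libraries held 4391029 to 8895917 counts each. Within each group, libraries were further apart than counting noise allows (chi-square over degrees of freedom, 5.47 to 24.4) and were kept as separate replicates, although nothing ties them to single animals, so that p-values measure the spread between libraries and part of it may be technical. Markers matched the sort. The summed level of 6 NKT1 markers was 3948 to 5607 CPM in NKT1 libraries and at most 424 CPM in the others, that of 6 NKT17 markers was 2382 to 2483 CPM in NKT17 libraries and at most 14.3 CPM in the others, and that of 6 NKT2 markers was 1936 to 2620 CPM in NKT2 libraries, 1503 to 1685 CPM in NKT17 and 472 to 661 CPM in NKT1. CPM are counts relative to library size after TMM scaling, a correction for differences in library makeup. Zap70 itself was read in all 18 libraries, but its point mutation cannot be seen in counts per gene. The summed level of 4 T cell genes was 4757 to 6153 CPM in all libraries, and that of 6 red cell genes was at most 1.45 CPM. In each group 1 library had Xist at 194 CPM or more and the other 2 had Ddx3y at 70.5 CPM or more. The numbers of each sex were thus alike in all 6 groups. The library high in Xist was replicate 1 in the WT groups and replicate 2 in the SKG groups.

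Levels of different genes can be compared only per length, as RPKM (CPM divided by the kilobases of exons). On that scale Ptpn6 and Ptprc stood far above the rest, with group means of 185 to 569 RPKM and 155 to 470.4 RPKM. Together they made up 70.7% to 79.5% of the summed RPKM of the 10 genes in every library. Ptpn22 (32.9 to 162 RPKM) and Ptpn2 (61.4 to 94.7 RPKM) came next. The 4 ligases summed to only 24.2 to 45.8 RPKM in a library. Ubash3a had the widest span, from 0.412 RPKM in WT NKT17 to 55.2 RPKM in SKG NKT1, a ratio of 134 between group means, followed by Rnf128 with a ratio of 24.2. For Cbl the same ratio was 1.32, for Itch 1.47 and for Ptpn2 1.54.

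**Figure D1:**
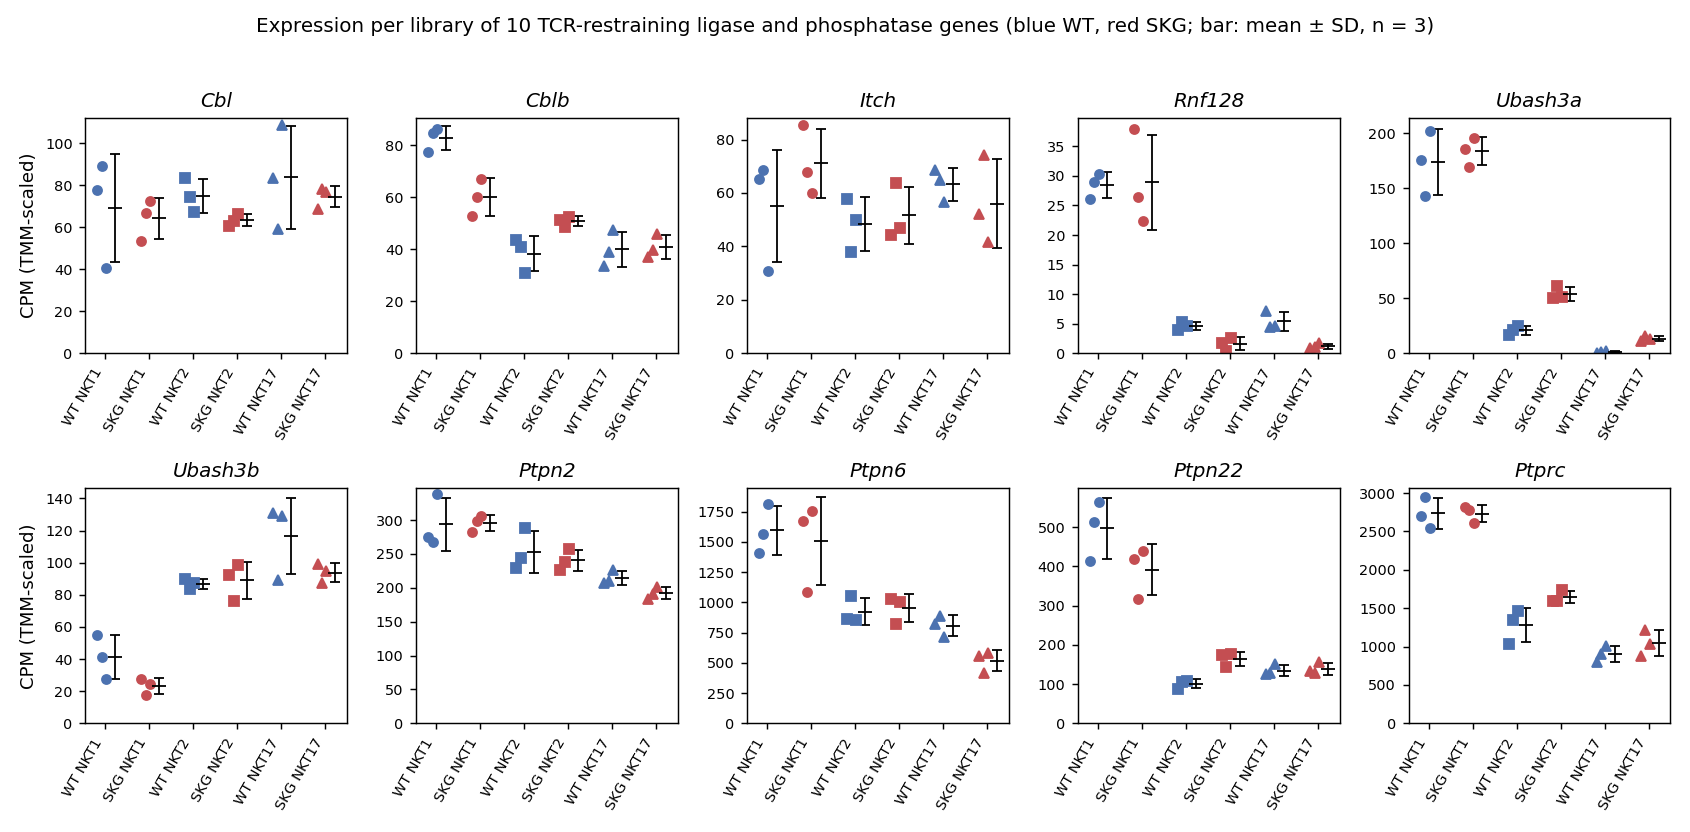
Expression of the 10 genes in each of the 18 libraries (CPM after TMM scaling, linear axis from 0, points are libraries, bars are the mean ± SD of 3). Ubash3a and Rnf128 are high in both NKT1 groups and low elsewhere, and Ubash3b runs the other way. For Cbl and Itch, groups next to each other in the order of their means overlap.

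A gene was called in a comparison when its Benjamini-Hochberg adjusted p, from the quasi-likelihood test of edgeR over all 11118 genes, was under 0.1 and its fold change reached 1.5. Every adjusted p below is from that test, and every log2 fold change is given with its standard error (SE). An exact permutation test of 3 libraries against 3 cannot give a p under 0.1, so none was run on single genes.

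Subsets were compared within WT mice to ask how the restraining genes divide among NKT1, NKT2 and NKT17. Between NKT1 and NKT2, 7 of the 10 members passed, of which NKT1 had the higher level in 6 and the lower level in 1, where 27.5% of all tested genes were called (13.7% higher and 13.7% lower). Between NKT1 and NKT17 the count was again 7, the same genes in the same directions, where 24.7% of all genes were called (11.2% higher and 13.5% lower). The libraries of 7 members did not overlap in the first of these comparisons and those of 8 in the second, against 41.6% and 34.1% of all genes. The median log2 fold change of the 10 genes was 0.94 over NKT2 and 1.02 over NKT17, while that of all tested genes was 0.00 and -0.01. Between NKT17 and NKT2 only Ubash3a was called, lower in NKT17, where 20% of all genes were called (11% higher and 8.97% lower). Of the 6 higher in NKT1, 5 (Cblb, Ubash3a, Ptpn6, Ptpn22 and Ptprc) are named in the study's own account of NKT1, which was drawn from such libraries, so that their direction is not independent evidence. Both of these comparisons share the NKT1 libraries.

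**Figure D2:**
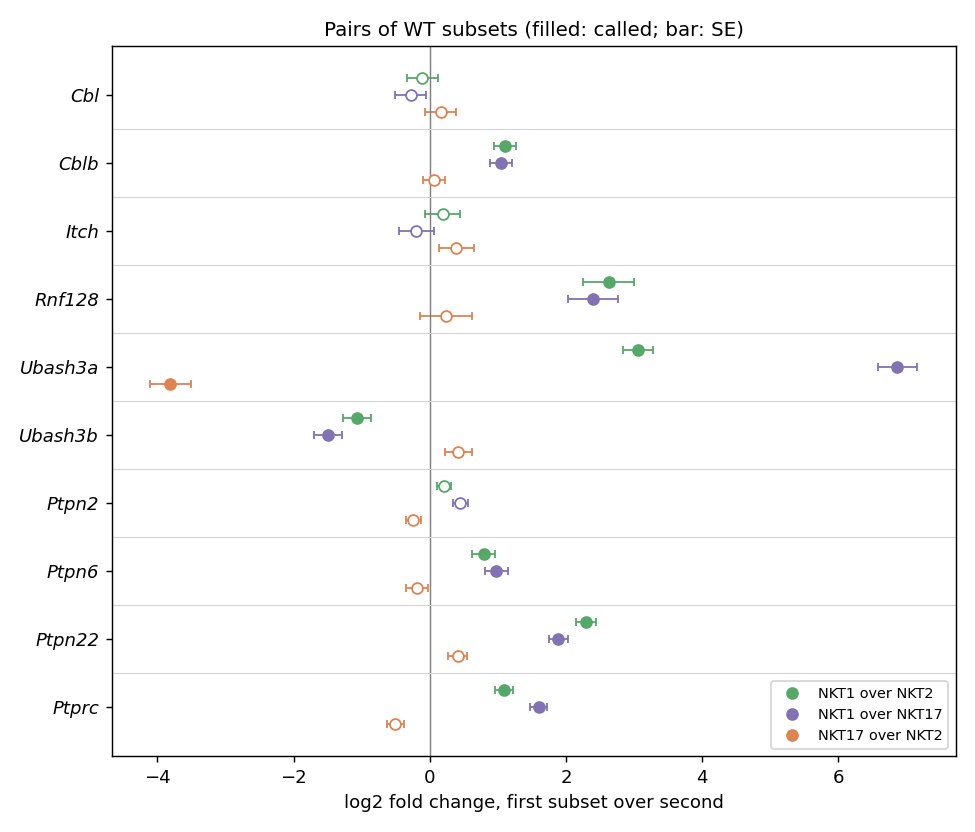
Log2 fold changes of the 10 genes between pairs of WT subsets (x axis, log2 units, bars are the SE, filled points passed both thresholds, n = 3 libraries per group). The points of Cblb, Rnf128, Ubash3a, Ptpn6, Ptpn22 and Ptprc lie to the right for NKT1 over both other subsets, those of Ubash3b lie to the left, and Ubash3a alone is filled for NKT17 over NKT2.

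In SKG mice the division by subset was largely of the same kind. Between NKT1 and NKT2, 6 of 10 were called (5 higher and 1 lower in NKT1), where 18.7% of all genes were (10% higher and 8.63% lower). Between NKT1 and NKT17, 7 of 10 were called (6 higher, 1 lower) against 22.8% of all genes (10.2% higher and 12.5% lower). Ptpn2 joined the higher genes there and Cblb left them, relative to WT. Between NKT17 and NKT2, 3 of 10 were called, all lower in NKT17 (Ubash3a, Ptpn6 and Ptprc), against 18.8% of all genes (10.5% higher and 8.27% lower).

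SKG was then compared with WT within each subset, to ask which of these genes differ when ZAP70 signals weakly. In NKT1 cells 1 of 10 genes was called (Ubash3b, lower), where 3.27% of all genes were (1.46% higher and 1.82% lower). In NKT2 cells 3 of 10 were called (Ubash3a and Ptpn22 higher, Rnf128 lower), where 7.95% of all genes were (3.9% higher and 4.05% lower). In NKT17 cells 3 of 10 were called (Ubash3a higher, Rnf128 and Ptpn6 lower), where 8.37% of all genes were (3.83% higher and 4.54% lower). The libraries of the 2 genotypes did not overlap for 1, 6 and 4 of the members in NKT1, NKT2 and NKT17, against 16.3%, 30.1% and 26.9% of all genes. With so few members, these counts describe the list and no test was made of it. The medians of the 10 log2 fold changes were -0.04, 0.07 and -0.17, with 4, 7 and 4 of the 10 above 0, beside medians of -0.01, 0.00 and 0.00 over all genes. The SKG effect itself was then compared between subsets. It differed in 3 of 10 members for NKT2 minus NKT1 (Cblb, Ubash3a and Ptpn22, all in the higher direction), against 3.87% of all genes (2.09% higher and 1.78% lower). For NKT17 minus NKT1 there were 2 members (Ubash3a higher, Rnf128 lower), against 4.17% of all genes (2.05% higher and 2.12% lower), and for NKT17 minus NKT2 1 member (Ubash3a, higher), against 2.19% (1.14% higher and 1.05% lower). In bulk samples, fewer cells that express a gene and less RNA per cell cannot be told apart, here and in every result that follows.

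**Figure D3:**
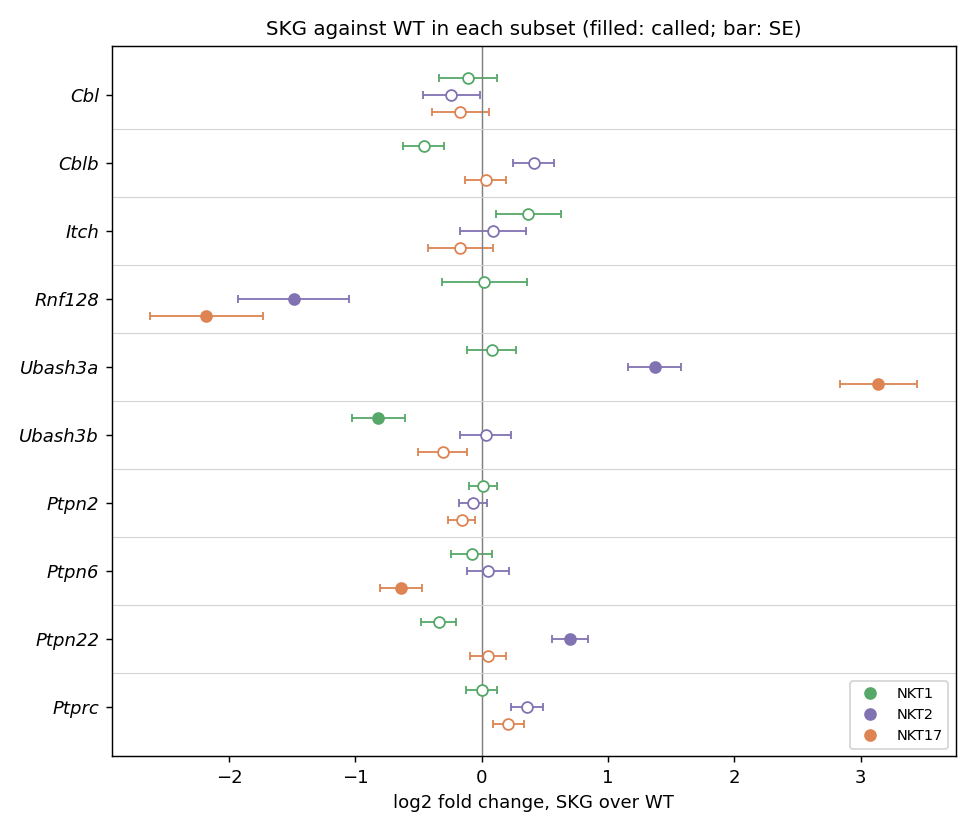
Log2 fold changes of the 10 genes between SKG and WT in each subset (x axis, log2 units, bars are the SE, filled points passed both thresholds, n = 3 libraries per group). Ubash3a lies to the right and Rnf128 to the left in NKT2 and NKT17 but both lie near 0 in NKT1, and Ptpn22 is filled for NKT2 alone.

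Cbl and Cblb encode RING-type ubiquitin ligases that act on activated receptors and on kinases and adaptors of the TCR pathway. CBL-B is the form known for raising the threshold of T cell activation. Cbl (chromosome 9, 43957345 to 44042129 on NCBIM37) was at 40.4 to 89.4 CPM in WT NKT1 and 59.3 to 109 CPM in WT NKT17, and the ranges of all neighbouring groups in the order of means overlapped. In NKT2 the SKG libraries (60.8 to 66.3 CPM) lay just below those of WT (67.1 to 83.4 CPM). Its log2 fold changes in the 9 comparisons of 2 groups ran from -0.28 (SE 0.22, edgeR adjusted p 0.413, NKT1 over NKT17 in WT) to 0.24 (SE 0.23, edgeR adjusted p 0.548, NKT17 over NKT2 in SKG). In SKG against WT, the intervals of 2 SE on either side of the estimate were -0.56 to 0.35 in NKT1, -0.70 to 0.21 in NKT2 and -0.62 to 0.28 in NKT17, so that a 1.5-fold fall lay inside the last 2 of them.

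Cblb (chromosome 16, 52031662 to 52208160) was at 77.3, 84.8 and 86.1 CPM in WT NKT1. In WT NKT2 it was at 43.3, 40.7 and 30.7 CPM, and in WT NKT17 at 33.6, 38.8 and 47.2 CPM. Every WT NKT1 library thus stood above every library of the other WT subsets. The log2 fold change was 1.11 (SE 0.16) over NKT2 and 1.05 (SE 0.16) over NKT17, with edgeR adjusted p 1.28e-05 and 2.27e-05. In SKG mice the levels lay closer together, at 52.8, 60.2 and 67.0 CPM in NKT1, 51.1, 48.6 and 52.5 CPM in NKT2, and 36.8, 39.6 and 45.8 CPM in NKT17. SKG NKT1 libraries were all below WT NKT1 and SKG NKT2 libraries were all above WT NKT2, while the NKT17 libraries of the genotypes overlapped. Neither genotype difference was called on its own, with log2 fold changes of -0.46 (SE 0.16, edgeR adjusted p 0.153) in NKT1 and 0.41 (SE 0.16, edgeR adjusted p 0.143) in NKT2. The difference between these 2 changes was called (0.87, SE 0.23, edgeR adjusted p 0.0418), and it failed without SKG NKT1 replicate 1, without SKG NKT2 replicate 1 or 3, or without WT NKT2 replicate 3 (highest adjusted p 0.137). The difference between NKT1 and NKT2 in SKG did not pass (0.24 on the log2 scale, SE 0.16, edgeR adjusted p 0.341), and that between NKT1 and NKT17 passed the p but not the 1.5-fold minimum (0.56, SE 0.16, edgeR adjusted p 0.0126).

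Itch (chromosome 2, 154959245 to 155052591), a HECT-type ligase whose loss in mice causes an itching inflammatory disease, had group means from 48.4 ± 10.0 CPM in WT NKT2 to 71.0 ± 13.0 CPM in SKG NKT1 (SD, n = 3). Its libraries overlapped in all 9 comparisons of 2 groups. The largest of its differences was 0.46 (SE 0.26, edgeR adjusted p 0.247) for NKT1 over NKT2 in SKG. Part of its spread came from WT NKT1 replicate 3, which was at 30.8 CPM beside 65.3 and 68.7 CPM in the other two, and Cbl was low in that same library.

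Rnf128 (chromosome X, 136097855 to 136207684) encodes GRAIL, a membrane-bound ligase first known from T cells made unresponsive. WT NKT1 libraries held 26.1, 29.0 and 30.3 CPM and SKG NKT1 libraries 37.9, 26.5 and 22.3 CPM. The NKT1 groups overlapped and differed by 0.02 on the log2 scale (SE 0.34, edgeR adjusted p 0.997). In NKT2 the level was 3.88, 5.24 and 4.53 CPM in WT and 1.76, 0.392 and 2.57 CPM in SKG, so that all 3 SKG libraries were below all 3 of WT. The log2 fold change was -1.49 (SE 0.44, edgeR adjusted p 0.0370). It rested on few reads, 19 to 30 counts in WT and 2, 8 and 16 in SKG. The call failed without WT NKT2 replicate 2 or SKG NKT2 replicate 2, and also when only the libraries compared were fitted (adjusted p over all alternatives 0.0129 to 0.167).

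The fall of Rnf128 was larger in NKT17. There it was at 7.22, 4.35 and 4.67 CPM in WT and 0.850, 1.05 and 1.69 CPM in SKG, again with no overlap. The log2 fold change was -2.18 (SE 0.45, edgeR adjusted p 0.00241), from 25 to 37 counts in WT and 6 to 9 in SKG, and no alternative tried ended this call. The change in NKT17 was called different from that in NKT1 (-2.20, SE 0.56, edgeR adjusted p 0.0340), which failed without SKG NKT1 replicate 1 or SKG NKT17 replicate 1 (highest adjusted p 0.107). The changes in NKT2 and NKT17 were not shown to differ (-0.68, SE 0.64, edgeR adjusted p 0.806). For NKT2 the difference from NKT1 did not pass (-1.51, SE 0.55, edgeR adjusted p 0.178). In SKG the NKT1 level was 17.7-fold above NKT2 and 24.2-fold above NKT17, and in WT it was 6.21-fold and 5.27-fold above (edgeR adjusted p 2.17e-08 to 1.85e-05 for the 4 comparisons). Without SKG NKT2 replicate 3, the change in NKT2 was -2.10 and the log2 fold change of NKT1 over NKT2 in SKG was 4.76. The summed level of the 6 NKT1 markers was also lower in SKG, at 211 to 304 CPM against 299 to 424 CPM in NKT2 and 161 to 221 CPM against 283 to 324 CPM in NKT17. Marker by marker, 6 of 6 were below WT in NKT2 (2 called lower, median log2 fold change -0.49), while in NKT17 4 of 6 were above WT and 2 below (1 called higher and 1 lower, median 0.64). Their part in the Rnf128 result was not tested.

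Ubash3a and Ubash3b are relatives that hold a ubiquitin-binding domain, an SH3 domain and a phosphatase-like domain. UBASH3B is the stronger phosphatase and is known to act on ZAP70 and SYK, while UBASH3A is largely confined to lymphocytes. The sequences just before their annotated starts are shown because the 2 genes ran in opposite directions across the subsets. They are from RefSeq on GRCm38.p6, a reference of C57BL/6 mice, cover 250 bases up to the base before the start, and are written 5′ to 3′ on the strand of the gene. Capitals mark matches on either strand to 7 short motifs, chosen after the levels were known: the T-box letters GGTGTGA, the ETS letters GGAAGT, the RUNX letters TGTGGT, the ROR letters AGGTCA, the E-box letters CAGCTG, the EGR letters GTGGGCG and the NFAT letters TGGAAA. These occur in 3.33%, 19.7%, 14%, 14%, 13%, 7.02% and 18.6% of the 32851 mouse promoters of that length.
Ubash3a, chr17:31207816-31208065, plus strand: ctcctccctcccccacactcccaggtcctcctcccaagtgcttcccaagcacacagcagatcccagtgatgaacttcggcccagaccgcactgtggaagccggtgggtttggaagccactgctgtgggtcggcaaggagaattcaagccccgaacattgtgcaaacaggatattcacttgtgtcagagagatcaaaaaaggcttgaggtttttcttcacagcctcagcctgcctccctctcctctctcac
Ubash3b, the first of 2 starts, chr9:41158063-41158312, minus strand: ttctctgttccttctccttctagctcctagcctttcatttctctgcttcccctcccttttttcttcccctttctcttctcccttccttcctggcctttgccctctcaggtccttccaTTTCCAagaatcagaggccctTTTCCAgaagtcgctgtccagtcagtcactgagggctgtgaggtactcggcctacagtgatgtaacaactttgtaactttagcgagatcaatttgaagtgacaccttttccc
No motif matched in the Ubash3a window, and the 2 capitalised runs of Ubash3b are the NFAT letters on the opposite strand, 133 and 112 bases before the start. The second start of Ubash3b, not shown, held the ROR letters 50 bases and the NFAT letters 35 bases before it. A match is a description of letters and not a bound site.

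Ubash3a (chromosome 17, 31344818 to 31379147 on NCBIM37) was at 176, 143 and 202 CPM in WT NKT1 and at 186, 169.8 and 195 CPM in SKG NKT1. In NKT2 it was at 16.6, 20.97 and 24.7 CPM in WT and 49.8, 60.9 and 50.7 CPM in SKG. In NKT17 it was at 0.390, 1.39 and 2.33 CPM in WT (2, 8 and 17 counts) and 10.6, 15.5 and 13.1 CPM in SKG (75, 89 and 70 counts). Apart from the 2 NKT1 groups, which overlapped, no library of any group reached into another group. The order of the groups was thus NKT1 of either genotype, SKG NKT2, WT NKT2, SKG NKT17 and WT NKT17.

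On the log2 scale, the genotype difference of Ubash3a grew as its WT level fell from subset to subset. In CPM the rise of the means was larger in NKT2 (20.8 in WT to 53.8 in SKG) than in NKT17 (1.37 to 13.1). In NKT1 the log2 fold change of SKG over WT was 0.08 (SE 0.19, edgeR adjusted p 0.929, interval of 2 SE from -0.30 to 0.47). In NKT2 it was 1.37 (SE 0.21, edgeR adjusted p 0.000142) and in NKT17 it was 3.14 (SE 0.31, edgeR adjusted p 3.92e-07). No alternative ended either call. All 3 differences between these changes were called, 1.29 for NKT2 minus NKT1 (SE 0.29, edgeR adjusted p 0.0121), 3.06 for NKT17 minus NKT1 (SE 0.37, edgeR adjusted p 3.02e-05) and 1.77 for NKT17 minus NKT2 (SE 0.38, edgeR adjusted p 0.0167). Among WT subsets, NKT1 was 8.33-fold above NKT2 and 117-fold above NKT17, and NKT17 was 14.0-fold below NKT2. In SKG these became 3.42-fold, 14.1-fold and 4.12-fold (edgeR adjusted p at most 5.39e-07 for these 6 comparisons). The values for NKT17 rest on 2, 8 and 17 counts in WT. Without WT NKT17 replicate 3, the log2 fold change of SKG over WT in NKT17 was 3.81, those of NKT1 over NKT17 and NKT17 over NKT2 in WT were 7.52 and -4.48, and the differences from the NKT1 and NKT2 changes were 3.70 and 2.44. Over all alternatives the change in NKT17 ran from 2.75 to 3.81. The part of NKT1 markers, whose values stand with Rnf128, was not tested.

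Markers of other cells that could be carried into the sort were checked beside this result. The summed level of 6 markers of double-positive thymocytes was 5.27 to 12.5 CPM in WT NKT17 and 14.3 to 47.5 CPM in SKG NKT17, and 1.64 to 2.27 CPM in WT NKT2 and 4.18 to 5.62 CPM in SKG NKT2, so it was higher where Ubash3a was higher. Nearly all of it in NKT17 was Cd8b1 and Cd8a, while Rag1, Rag2 and Dntt were at 0 in all 6 NKT17 libraries (in NKT2 they reached at most 0.321 CPM), and their part in the result was not tested. Of 6 B cell markers, Cd79b was at 7.55 to 10.2 CPM in WT NKT17 and 24.6 to 39.98 CPM in SKG NKT17, but Pax5 was at 0 in these libraries. Blk, a kinase gene on the same list, made up most of its sum and was at 1925 to 2083 CPM in WT NKT17 and 669 to 955 CPM in SKG NKT17.

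Ubash3b (chromosome 9, 40819181 to 40969780) was at 55.2, 41.1 and 27.5 CPM in WT NKT1 and 27.7, 17.7 and 24.6 CPM in SKG NKT1. In NKT2 it was at 89.7, 83.4 and 87.5 CPM in WT and 92.3, 76.2 and 98.3 CPM in SKG. In NKT17 it was at 131, 89.4 and 129 CPM in WT and 99.4, 87.4 and 94.6 CPM in SKG. Every NKT1 library lay below every library of the other subsets, and the 4 groups of NKT2 and NKT17 overlapped with their neighbours. NKT1 was below NKT2 by -1.07 on the log2 scale (SE 0.20, edgeR adjusted p 0.000277) in WT and -1.93 (SE 0.21, edgeR adjusted p 3.34e-07) in SKG, and below NKT17 by -1.49 (SE 0.20, edgeR adjusted p 4.39e-06) and -2.00 (SE 0.21, edgeR adjusted p 1.33e-07).

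Ubash3b was the single member called between the genotypes in NKT1. The log2 fold change was -0.82 (SE 0.21, edgeR adjusted p 0.0340), although 1 SKG library (27.7 CPM) lay just above the lowest WT library (27.5 CPM). The summed level of 6 genes listed as myeloid markers was also lower in SKG NKT1 (219 to 267 CPM against 325 to 644 CPM in WT). Nearly all of it was Fcer1g (171 to 212 CPM in SKG, 272 to 523 CPM in WT) and Tyrobp (43.7 to 55.4 and 52.5 to 121 CPM), while Csf1r, Cd14 and Itgam were at 0 in all 6 NKT1 libraries. The summed level of the NKT1 markers was 3948 to 4390 CPM in SKG and 4808 to 5607 CPM in WT, with 5 of 6 below WT and 0 called by edgeR (3 at an unadjusted p under 0.05). Their part in the result was not tested. The call failed without WT NKT1 replicate 1, without SKG NKT1 replicate 2, or when only the libraries compared were fitted, with adjusted p from 0.00355 to 0.275 over the alternatives. Those replicates were the NKT1 libraries high in Xist, and the part of sex was not tested. In NKT2 the change was 0.03 (SE 0.20, edgeR adjusted p 0.956) and in NKT17 it was -0.31 (SE 0.20, edgeR adjusted p 0.390), and neither was shown to differ from that in NKT1 (edgeR adjusted p 0.136 and 0.439).

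The balance within the pair shifted by subset and genotype. The log2 ratio of Ubash3a to Ubash3b in RPKM was 2.81 to 4.02 in WT NKT1 and 3.8879 to 4.3996 in SKG NKT1, so Ubash3a was the more abundant transcript there in all 6 libraries. In NKT2 it was -1.30 to -0.68 in WT and 0.18 to 0.82 in SKG, which put Ubash3b ahead in all WT libraries and Ubash3a ahead in all SKG libraries. In NKT17 it was -7.25 to -4.65 in WT and -2.09 to -1.35 in SKG, with Ubash3b ahead in all 6.

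**Figure D4:**
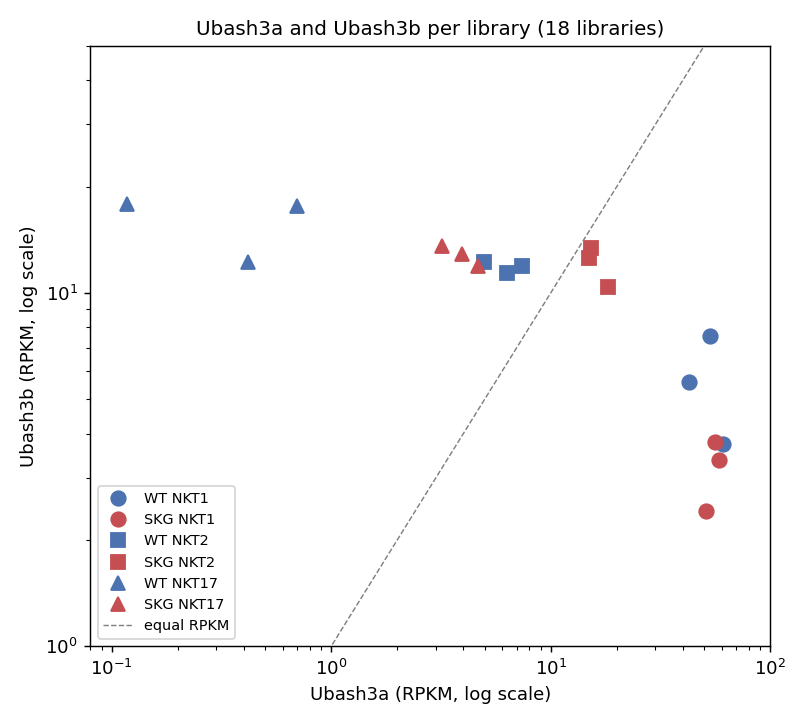
Ubash3a (x axis) against Ubash3b (y axis) in each of the 18 libraries, both in RPKM on log scales, with WT in blue, SKG in red and one symbol per subset. SKG NKT2 libraries lie just to the right of the line of equal RPKM and WT NKT2 libraries to the left of it, and the NKT17 groups are separated along the x axis at like levels of Ubash3b.

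Among the phosphatases, Ptprc, Ptpn6 and Ptpn22 were each higher in NKT1 than in the other subsets in both genotypes. Their promoter windows are shown because of this shared direction between subsets. Between genotypes they did not move together, since Ptpn22 was called in NKT2 alone and Ptpn6 in NKT17 alone. The windows shown each hold the ETS letters, as do 19.7% of all promoters (capitals as above, RefSeq on GRCm38.p6). Ubash3a, Cblb and Rnf128 were also higher in NKT1 of WT, and their windows held no ETS letters.
Ptpn22, the first of 2 starts, chr3:103859545-103859794, plus strand: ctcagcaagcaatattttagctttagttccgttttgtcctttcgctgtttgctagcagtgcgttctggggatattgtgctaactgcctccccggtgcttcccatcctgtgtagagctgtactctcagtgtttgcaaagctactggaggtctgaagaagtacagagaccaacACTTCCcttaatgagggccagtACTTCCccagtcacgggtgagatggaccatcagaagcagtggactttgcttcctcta
Ptprc, the first of 2 starts, chr1:138175306-138175555, minus strand: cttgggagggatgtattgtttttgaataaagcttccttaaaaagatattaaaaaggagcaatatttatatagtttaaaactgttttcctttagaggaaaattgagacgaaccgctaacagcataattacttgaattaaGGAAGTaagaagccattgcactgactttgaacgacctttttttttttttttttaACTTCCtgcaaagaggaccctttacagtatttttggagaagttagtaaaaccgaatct
Ptpn6, chr6:124738710-124738959, minus strand: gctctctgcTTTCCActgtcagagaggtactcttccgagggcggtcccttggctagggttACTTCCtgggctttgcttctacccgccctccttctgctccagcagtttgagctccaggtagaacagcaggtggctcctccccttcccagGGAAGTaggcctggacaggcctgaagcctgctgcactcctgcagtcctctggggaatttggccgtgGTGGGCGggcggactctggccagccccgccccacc
The ETS letters lay 79 and 57 bases before the start of Ptpn22, 112 and 58 bases before that of Ptprc, and 190 and 101 bases before that of Ptpn6. The second start of Ptpn22 held no ETS letters but the RUNX letters at 165 and 48 bases before it, and that of Ptprc held the ETS letters once, at 237 bases. Ptpn6 also held the NFAT letters at 241 bases and the EGR letters at 35 bases before its start. The windows of Cbl and Rnf128 held the EGR letters once each and that of Cblb held no motif, and no window is shown for Ptpn2 and Itch.

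Ptprc (chromosome 1, 139959438 to 140071882 on NCBIM37) encodes CD45, the abundant receptor phosphatase of white blood cells. Counts per gene do not tell its splice forms apart. It was at 2707, 2955 and 2545 CPM in WT NKT1 and 2819, 2774 and 2605 CPM in SKG NKT1. NKT2 levels were 1034, 1346 and 1466 CPM in WT and 1594, 1599 and 1733 CPM in SKG. In NKT17 it was at 797, 899 and 1009.6 CPM in WT and 883, 1220.4 and 1034 CPM in SKG. NKT1 libraries stood above all others, and the genotypes were apart in NKT2 alone. NKT1 over NKT2 gave 1.09 on the log2 scale (SE 0.13, edgeR adjusted p 4.28e-07) in WT and 0.73 (SE 0.13, edgeR adjusted p 0.000118) in SKG. NKT1 over NKT17 gave 1.60 (SE 0.13, edgeR adjusted p 9.78e-10) and 1.39 (SE 0.13, edgeR adjusted p 1.34e-08). SKG against WT gave 0.00 in NKT1 (SE 0.12, edgeR adjusted p 1.00), 0.36 in NKT2 (SE 0.12, edgeR adjusted p 0.0859, under the 1.5-fold minimum) and 0.21 in NKT17 (SE 0.12, edgeR adjusted p 0.345). NKT17 was below NKT2 in both genotypes, by -0.51 (SE 0.13, edgeR adjusted p 0.00425) in WT, just under the minimum, and by -0.65 (SE 0.13, edgeR adjusted p 0.000423) in SKG, a call that failed without SKG NKT17 replicate 1.

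Ptpn6 (chromosome 6, 124670725 to 124688732) encodes SHP-1, which is recruited to inhibitory receptors. An annotated transcript on the opposite strand shares exon bases with it, and some reads may belong there, since whether counting used strand is not given in the sources used here. It was at 1406, 1563 and 1813 CPM in WT NKT1 and 1671, 1086 and 1756 CPM in SKG NKT1. In NKT2 it was at 862, 1049 and 850.5 CPM in WT and 1030.2, 817 and 1006 CPM in SKG, so both pairs overlapped. In NKT17 the WT libraries held 823, 884 and 713 CPM and the SKG libraries 554, 418 and 581 CPM, with no overlap. The log2 fold change in NKT17 was -0.64 (SE 0.16, edgeR adjusted p 0.0175), a fold of 1.56, and it lost the call without WT NKT17 replicate 2 or SKG NKT17 replicate 2. In NKT1 it was -0.08 (SE 0.16, edgeR adjusted p 0.906) and in NKT2 0.05 (SE 0.16, edgeR adjusted p 0.918). The difference between the NKT17 and NKT2 changes did not pass (-0.69, SE 0.23, edgeR adjusted p 0.205), but passed with DESeq2, with the replicate block, with only the libraries compared and without SKG NKT1 replicate 2. NKT1 exceeded NKT2 1.73-fold in WT (edgeR adjusted p 0.000898) and 1.58-fold in SKG (edgeR adjusted p 0.00591), and NKT17 1.98-fold and 2.91-fold (edgeR adjusted p 0.000103 and 5.35e-07). The 1.58-fold difference fell under the thresholds without SKG NKT1 replicate 1 or 3 or SKG NKT2 replicate 2.

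Ptpn22 (chromosome 3, 103663718 to 103716170) encodes a phosphatase of SRC-family kinases and ZAP70 that is a known locus of autoimmunity. It was at 413, 513 and 565 CPM in WT NKT1 and 418, 317 and 439 CPM in SKG NKT1. NKT2 libraries held 87.7, 106 and 109 CPM in WT and 173, 143 and 176 CPM in SKG. In NKT17 it was at 125, 128 and 150.1 CPM in WT and 133, 128 and 156 CPM in SKG. The genotypes were apart in NKT2 and overlapped in NKT1 and NKT17. SKG over WT gave a log2 fold change of 0.70 in NKT2 (SE 0.14, edgeR adjusted p 0.00209), a 1.63-fold difference that fell under the 1.5-fold minimum with the replicate block. It gave -0.34 in NKT1 (SE 0.14, edgeR adjusted p 0.247) and 0.05 in NKT17 (SE 0.14, edgeR adjusted p 0.9002). The NKT2 change was called different from the NKT1 change (1.04, SE 0.20, edgeR adjusted p 0.00323). It was not called different from the NKT17 change (-0.65, SE 0.20, edgeR adjusted p 0.131), which passed with DESeq2, with the replicate block, with only the libraries compared and without SKG NKT1 replicate 2. In WT, NKT1 was 4.92-fold above NKT2 and 3.70-fold above NKT17 (edgeR adjusted p 3.08e-11 and 4.23e-10), and in SKG 2.39-fold and 2.82-fold (edgeR adjusted p 3.91e-07 and 2.28e-08).

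Ptpn2 (chromosome 18, 67825165 to 67884249) encodes TCPTP, a phosphatase of SRC-family kinases and of JAK and STAT proteins. Its means were highest in NKT1 (294 ± 39.6 CPM in WT, 296 ± 12.0 CPM in SKG, SD, n = 3) lower in NKT2 (253 ± 30.8 and 240.3 ± 15.3 CPM) and lowest in NKT17 (215 ± 10.5 and 192 ± 8.96 CPM). One comparison reached 1.5-fold, NKT1 over NKT17 in SKG (1.54-fold, edgeR adjusted p 0.000102). The same comparison in WT passed the p and not the minimum (0.45 on the log2 scale, SE 0.11, edgeR adjusted p 0.00249). The genotypes differed by at most 0.16 on the log2 scale in any subset (SE 0.11, edgeR adjusted p 0.429 or more), although in NKT17 all SKG libraries (183 to 201 CPM) lay below all WT libraries (207 to 226 CPM).

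Other genes of the same pathways were examined to set the 10 beside their neighbours. Of 20 further ubiquitin ligases and adaptors of T cells, 19 were tested, and 0 were called by edgeR between SKG and WT in NKT1 (3 at an unadjusted p under 0.05), 3 in NKT2 and 1 in NKT17, all higher in SKG. Of all tested genes, 3.27% were called in NKT1, 7.95% in NKT2 and 8.37% in NKT17. Nedd4, a HECT-type relative of Itch, rose from 14.9 ± 0.771 to 59.2 ± 16.9 CPM in NKT2 (1.99 on the log2 scale, SE 0.36, edgeR adjusted p 0.00201) and from 13.2 ± 9.27 to 42.5 ± 5.22 CPM in NKT17 (1.65, SE 0.36, edgeR adjusted p 0.00816). Without WT NKT17 replicate 3 the latter was 2.45. Among WT subsets it was highest in NKT1, at 101 ± 30.3 CPM. The other two called in NKT2 were Smurf2 (0.82, SE 0.22, edgeR adjusted p 0.0198) and Nedd4l (1.43, SE 0.50, edgeR adjusted p 0.0851), both also HECT-type ligases. Of these, Nedd4l lost its call in 9 of 25 alternatives, and Smurf2 without WT NKT2 replicate 2.

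Of 21 other tyrosine phosphatases, 19 were tested, beside shares of all genes called of 3.27% in NKT1, 7.95% in NKT2 and 8.37% in NKT17. None of the 19 was called between genotypes in NKT1 by edgeR (0 called, 3 at an unadjusted p under 0.05), while 2 were lower in SKG in NKT2 and 2 in NKT17. In NKT2 these were Ptprs (6.06 ± 1.75 CPM in SKG, 20.3 ± 5.99 CPM in WT, edgeR adjusted p 0.00144) and Ptprv (32.5 ± 5.64 and 64.5 ± 8.57 CPM, edgeR adjusted p 0.0101). In NKT17 they were Ptpn4 (4.97 ± 0.848 CPM in SKG and 10.7 ± 1.98 CPM in WT, edgeR adjusted p 0.0298), which lost its call without WT NKT17 replicate 1 or SKG NKT17 replicate 1 or 3, and Ptprj, with 4 or fewer counts per SKG library, which lost its call in 13 of 25 alternatives. Of the WT subset differences, Ptpn4 was 4.24 higher in NKT1 than NKT2 on the log2 scale (SE 0.34) and Ptprv was 4.91 lower in NKT1 than NKT17 (-4.91 on the log2 scale, SE 0.28). Ptpn12 was 2.74 higher in NKT1 than NKT17 (SE 0.33).

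Of 30 substrates and partners of these enzymes, all 30 were tested. SKG and WT differed for 1 in NKT1, 2 in NKT2 and 3 in NKT17, against 3.27%, 7.95% and 8.37% of all genes. These shares stand beside the deubiquitinases below as well, and no test was made of the counts of these lists. Cd247, the gene of the zeta chain to which ZAP70 binds, was lower in SKG NKT2 (972 ± 110 CPM against 1652 ± 308 CPM in WT, -0.77 on the log2 scale, SE 0.12, edgeR adjusted p 0.000213) and in SKG NKT17 (447 ± 27.5 against 854 ± 118 CPM, -0.93, SE 0.12, edgeR adjusted p 2.17e-05). Pag1, whose product anchors the kinase CSK, was higher in SKG NKT17 (36.5 ± 2.89 against 21.9 ± 3.75 CPM, 0.74, SE 0.20, edgeR adjusted p 0.0212). Plcg2 was called in NKT2 with 0 counts in every WT library with a highest SKG count of 16, lost its call in 4 of 24 alternatives, and is given no fold. The 10 genes listed as deubiquitinases were all tested. Usp18, an interferon-induced gene on that list, was lower in SKG NKT1 (22.3 ± 7.10 against 55.6 ± 12.0 CPM, -1.31, SE 0.26, edgeR adjusted p 0.00568). It was also called in NKT17 at an edgeR adjusted p of 0.09997, a call that 14 of 26 alternatives ended, and 0 of the 10 were called in NKT2 (1 at an unadjusted p under 0.05).

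Zap70, the mutated gene, passed the p but not the 1.5-fold minimum in NKT2 (-0.39 on the log2 scale, edgeR adjusted p 0.0378) and NKT17 (-0.58, edgeR adjusted p 0.00174), and in NKT17 it passed both under 10 of 26 alternatives.

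As a description, the genes whose log2 CPM ran most like each member over the 18 libraries were found by Pearson correlation. The libraries fall into 6 groups and share their subsets, so such values mostly follow the subsets. For Ubash3a they were Cd2 (0.971) and Ms4a6b (0.962), for Ubash3b Trib2 (0.928) and Ctdnep1 (0.924), and for Rnf128 Fam46a (0.957) and Adora2a (0.942). For Cblb they were Tbc1d1 (0.909) and Ptpn22 (0.898), the latter being another of the 10. For Ptprc they were Malt1 (0.978) and B4galnt1 (0.974), for Ptpn6 Gimap5 (0.956) and Gimap9 (0.950), for Ptpn22 Gne (0.963) and Qrfp (0.957), and for Ptpn2 Jmjd7 (0.954) and Itgb2 (0.938). The best matches of Itch (Ubqln1, 0.844, and Pank2, 0.835) and Cbl (Pls3, 0.815, and Dag1, 0.784) were lower. Within the 10, Ubash3a and Ptprc had the highest value (0.928) and Ubash3b and Ptprc the lowest (-0.856).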

How the data were processed

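RNA-seq libraries of 18 samples were analysed from a table of counts, deposited by the authors as whole, unnormalised read numbers for each gene symbol. By the study's methods, poly-A RNA was made into full-length cDNA and tagmented by Tn5, low-complexity reads and those matching spike-ins, adapters, rRNA or tRNA were discarded, and the rest were aligned with TopHat 1.4.1 and counted by htseq-count in union mode. The methods name mm9, while the submitters' processing notes list mm10 and hg19, Bowtie 1.0.0 and HTSeq 0.7.1. The annotation and strand setting are not given in the sources used here. Of its columns, 2 matched no listed sample and were not used. Reads carry no molecular identifiers, so PCR copies count as reads.

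Genes were filtered by filterByExpr by group (11118 of 15582 genes with a count were kept), scaled by TMM (factors 0.928 to 1.07), and fitted by edgeR 4.0.16 (R 4.3.3, limma 3.58.1) with a robust quasi-likelihood model of all 18 libraries in 6 groups (12 residual degrees of freedom, common biological coefficient of variation 21.1%). Tests were two-sided. In all, 12 contrasts were taken: the genotypes within a subset, pairs of subsets within a genotype, and differences of the SKG effect. SEs were derived from each log2 fold change and its F statistic. The same steps were tested on simulated data. Alternatives were DESeq2 1.42.0, RLE and upper-quartile scaling, no filter, a mean of at least 50 counts, no fold minimum, only the libraries compared, a replicate block (the token that titles share), and leaving out every library in turn. Deviations of samples that share a token correlated over 0.1 in every pair only between WT NKT2 and WT NKT17, and the token was taken to pair samples there. These alternatives were set out with the design, and none was added later. RPKM used the union of exons of GENCODE M1 on NCBIM37, joined by symbol.

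The genes and lists were chosen with earlier results of these data known. Text names all 10 members, Zap70, for each further list up to 4 called genes with the smallest adjusted p per comparison of SKG with WT or of WT subsets, the 2 genes most correlated with each member, and sums of 6 markers per subset. Promoter windows are from RefSeq on GRCm38.p6, and the 7 motifs were chosen after the levels were known. Some genes under these rules are not reported here.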

Additional observations from a re-analysis of the deposited data

Results flagged for a closer look

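The results listed here are those in which the change from WT to SKG differed between subsets by the interaction term of the edgeR fit, at a Benjamini-Hochberg adjusted p under 0.1 over 11118 genes and a difference of at least 1.5-fold. Among all genes, 3.87% passed for NKT2 minus NKT1, 4.17% for NKT17 minus NKT1 and 2.19% for NKT17 minus NKT2. The changes being compared share no library, but libraries of one genotype may be paired across subsets, which the fit did not use. Values are differences of log2 fold changes.

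Ubash3a differed in all 3 pairs, by 1.29 for NKT2 minus NKT1, 3.06 for NKT17 minus NKT1 and 1.77 for NKT17 minus NKT2. All 3 SKG libraries were above all 3 WT libraries in NKT2 and in NKT17, and the genotypes overlapped in NKT1. Ptpn22 differed by 1.04 for NKT2 minus NKT1, with the genotypes apart in NKT2 and overlapping in NKT1. Cblb differed by 0.87 for NKT2 minus NKT1, with all SKG libraries below WT in NKT1 and above WT in NKT2. Rnf128 differed by -2.2 for NKT17 minus NKT1, with all SKG libraries below WT in NKT17 and overlapping in NKT1, at 6 to 9 counts per library in SKG NKT17.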

How the results depend on the processing

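Over the alternatives, the 10 genes gave 3076 values on the same side of the thresholds as reported, 24 that newly passed and 19 that no longer did, and none turned direction once called. Of the counts of members called, the 1 in SKG against WT in NKT1 became 0 when only the libraries compared were fitted. The 1 in NKT17 against NKT2 of WT became 3 with no fold minimum (adding Ptpn22 and Ptprc). For the SKG effect in NKT17 minus NKT2, the 1 became 3 with DESeq2, with the replicate block and with only the libraries compared (adding Ptpn6 and Ptpn22). The cause of these moves was not tested, other than the fold minimum itself. Upper-quartile scaling moved the median log2 fold change of all genes by -0.102 in NKT1 against NKT2 of WT, less elsewhere, and changed no member's call. Over all genes, calls moved by over 1.5 times for SKG against WT in NKT17 with no fold minimum (931 to 1398), for SKG against WT in NKT1 with only the libraries compared (364 to 207), and for NKT17 minus NKT2 without SKG NKT17 replicate 1 (244 to 157) and NKT17 minus NKT1 without SKG NKT17 replicate 3 (464 to 296).

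Leaving out 1 library at a time gave, for SKG against WT, 0 to 1 members called in NKT1, 2 to 3 in NKT2 and 2 to 3 in NKT17. It gave 7 to 7 for NKT1 against NKT2 and for NKT1 against NKT17 in WT, 1 to 2 for NKT17 against NKT2 in WT, 5 to 6, 7 to 8 and 2 to 3 for the same pairs in SKG, and 2 to 4, 1 to 3 and 1 to 3 for the differences of the SKG effect (NKT2 minus NKT1, NKT17 minus NKT1 and NKT17 minus NKT2). The libraries that moved a count by over 1.5 times were WT NKT1 replicate 1 and SKG NKT1 replicate 2 (to 0 in NKT1), WT NKT2 replicate 1 and WT NKT17 replicates 2 and 3 (to 2 in NKT17 against NKT2 of WT), SKG NKT1 replicate 1 and SKG NKT17 replicate 1 (to 1 in NKT17 minus NKT1) and SKG NKT1 replicate 2 (to 3 in NKT17 minus NKT2).

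The sample titles share tokens whose meaning is not given. Samples of one genotype with the same token deviated together at r of -0.0612 to 0.351 (12 of 18 pairs over 0.1, median 0.17), those of one genotype with different tokens exceeded 0.1 in 3 of 36 pairs (median -0.0972), and across genotypes same-token samples did so in 0 of 18. All 3 pairs exceeded 0.1 only between WT NKT2 and WT NKT17 (0.351, 0.239 and 0.219), so the tokens were taken to pair the samples for that comparison alone, where the replicate block left 1 member called (Ubash3a, as without it). Elsewhere no pairing was assumed, although 16 of 18 libraries correlated best with one of their own token, a hint from the data. Within each genotype the library high in Xist also carried the same token in all 3 subsets (7_5 in WT, 7_11 in SKG). Pairing of subsets within a genotype may thus hold more widely, and the main fit did not use it. The replicate block lowered the members called in SKG against WT in NKT2 to 2 by putting Ptpn22 under the fold minimum, and besides the addition above it changed no other call of a member. Ubash3a rose by 2.56 and 2.50 on the log2 scale in NKT17 within the 2 tokens that both genotypes hold (7_10 and 7_11). In CPM it went from 1.39 in WT to 10.6 in SKG for 7_10 and from 2.33 to 15.5 for 7_11. A constant was added to CPM before the log, which shrinks these differences at such low levels. Across genotypes the token was not shown to pair samples. In 7_11 the SKG library was high in Xist while the WT library was not. These differences, and the block between genotypes, are therefore not matched comparisons.

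Depth limits the low levels: Rnf128 in SKG NKT2 and NKT17 and Ubash3a in WT NKT17 rest on 2 to 17 counts per library. With the longest transcript in place of the union of exons, 27 of 60 group means in RPKM moved by more than 1 SD, so orders of genes by RPKM that lie close together are not firm.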

Other observations

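Several partners of the restraining enzymes differed between WT subsets. Of the 30 listed, 10 were called for NKT1 against NKT2, 10 for NKT1 against NKT17 and 11 for NKT17 against NKT2. Of all tested genes, 27.5%, 24.7% and 20% were called in these comparisons, and no test was made of the list. The study itself names Pag1 among genes of NKT1, so its direction is not independent evidence. Values are log2 fold changes with the SE, and all passed edgeR at an adjusted p under 0.1 with at least 1.5-fold. Cd247 was lowest in NKT1 (-2.43, SE 0.13, against NKT2 and -1.48, SE 0.13, against NKT17) and lower in NKT17 than in NKT2 (-0.95, SE 0.12). Sh2d1a, which encodes the adaptor SAP, was lower in NKT1 than in NKT2 (-1.66, SE 0.14), and Stat5b was lower in NKT1 than in NKT2 (-1.07, SE 0.13) and NKT17 (-1.06, SE 0.13). Lat, an adaptor of the TCR pathway, was lower in NKT1 than in NKT17 (-0.85, SE 0.11). Jak1 was higher in NKT1 than in NKT2 (0.89, SE 0.11), and Pag1 than in NKT17 (1.62, SE 0.20). NKT17 exceeded NKT2 in Jak3 (1.01, SE 0.13) and was below it in Prkcq, the gene of PKC-theta (-0.88, SE 0.12).

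In the same 3 comparisons, 5, 6 and 4 of 19 other ligases and adaptors were called, and 6, 6 and 4 of 19 other phosphatases. For the 10 genes listed as deubiquitinases the counts were 1, 1 and 0 (1 at an unadjusted p under 0.05 in the last). The shares of all genes were 27.5%, 24.7% and 20%. Among the other ligases, Peli1 was higher in NKT1 than in NKT2 (1.57, SE 0.19) and NKT17 (1.76, SE 0.19), and Nedd4 likewise (2.77, SE 0.37, and 2.91, SE 0.37, the latter 3.69 without WT NKT17 replicate 3). NKT1 also exceeded NKT2 in Rnf13 (0.92, SE 0.14) and Cbll1 (0.65, SE 0.19), and NKT17 in Rnf125 (0.81, SE 0.16), while Rc3h1 was lower than in NKT17 (-0.64, SE 0.15). NKT17 exceeded NKT2 in Wwp2 (0.71, SE 0.12) and Rnf13 (0.79, SE 0.14) and was below it in Wwp1 (-1.12, SE 0.26) and Smurf2 (-0.69, SE 0.22). Of the genes listed as deubiquitinases, Tnfaip3 was higher in NKT1 than in NKT2 (1.52, SE 0.56) and Usp18 than in NKT17 (1.09, SE 0.26). Of the phosphatases, NKT1 was below NKT2 in Ptprv (-3.60, SE 0.28) and Ptprs (-1.71, SE 0.33) and above it in Ptpn12 (1.12, SE 0.30). Against NKT17 it was higher in Ptpn4 (2.07, SE 0.29) and lower in Ptprs (-1.60, SE 0.33). NKT17 exceeded NKT2 in Ptpn4 (2.16, SE 0.35), Ptprv (1.31, SE 0.23) and Ptpre (0.59, SE 0.21) and was below it in Ptpn12 (-1.62, SE 0.33). The calls of Cbll1, Tnfaip3, Rc3h1, Smurf2 and Ptpre failed in 2, 3, 2, 2 and 11 of 26 alternatives each, and that of Ptpre fell to 0.56, under the fold minimum, with the replicate block.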
